A study of Mus musculus with 16 samples.

Results

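The Obox genes encode homeobox transcription factors made in the mouse oocyte and early embryo. The genes described here are Obox1, Obox2, Obox3, Obox5 and Obox6, taken as every row of the array table whose gene symbol was or included 1 of these 5 names. Each name had exactly 1 row, none of the 2176 rows with several symbols held one of them, and these 5 rows were read among 30638 tested rows and 72688 rows in all. The table also held 36 rows of other Obox loci, which are described after the members: Obox7, 8 rows of Obox3 pseudogenes and 27 rows of Obox4 pseudogenes.

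The series measured gene expression by Affymetrix whole-transcript arrays in 16 samples, 1 array per stage and background. The 8 stages ran from the MII oocyte through 1-cell, then early and late 2-cell, 4-cell and 8-cell, to the morula and the blastocyst, on 2 backgrounds. On the superovulated background, females received 10 IU PMSG and 10 IU hCG 48 h apart, and on the natural-cycle background they received no hormone. All oocytes came from B6C3F1 females, all embryos were fathered by CD1 males and were cultured in pools in KSOM(aa) from the pronuclear stage, and each array took an RNA volume equal to 20 oocytes or embryos. The MII oocytes of natural cycles were taken after mating to vasectomized males and those after superovulation without mating, so mating and stimulation cannot be told apart at that stage. By the labels the superovulated background was collected in 4 runs and the natural-cycle background in 9. Collection and stimulation therefore cannot be told apart at any stage. With 1 array per group, p-values rest on how far the 2 backgrounds depart from a common stage course, and embryos were pooled before lysis.

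The homeodomain is a DNA-binding fold, and the Obox proteins belong to the paired-like class together with Crx and Otx2. The family is specific to rodents and arose by repeated duplication beside Crx. Some members are stored in the oocyte as maternal transcripts, others are transcribed only from the embryonic genome, and in the mouse the family acts in zygotic genome activation, the step at which the embryo replaces maternal RNA with its own. Obox4 type loci, nearly all annotated as pseudogenes, lie among the coding genes.

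In the RefSeq annotation of GRCm38.p6, 53 loci carried an Obox name, of which 6 were protein coding and 47 pseudogenes. All but 2 of them lay on chromosome 7, between positions 14517971 and 15839679, and the other 2 on chromosome 17. The coding genes were Obox7 (14659708 to 14665996), Obox2 (15388851 to 15398545), Obox1 (15547257 to 15556846), Obox3 (15625306 to 15639777), Obox5 (15750370 to 15759274) and Obox6 (15833250 to 15839679). No source used here gave the build behind the array design, so these positions are those of RefSeq.

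The promoter set used here held no entry for Obox6. Among the other 4 members, Obox1, Obox2 and Obox5 took nearly one course over the stages while Obox3 took another, and their promoters are shown. Each is the RefSeq window of GRCm38.p6 on chromosome 7 from 250 bases before to 50 bases after the annotated start, written 5′ to 3′ on the strand of the gene. Capitals mark the longest run that Obox1, Obox3, Obox5 and Obox7 had in common, 42 bases.
Obox1 (plus strand, chr7:15547007-15547306): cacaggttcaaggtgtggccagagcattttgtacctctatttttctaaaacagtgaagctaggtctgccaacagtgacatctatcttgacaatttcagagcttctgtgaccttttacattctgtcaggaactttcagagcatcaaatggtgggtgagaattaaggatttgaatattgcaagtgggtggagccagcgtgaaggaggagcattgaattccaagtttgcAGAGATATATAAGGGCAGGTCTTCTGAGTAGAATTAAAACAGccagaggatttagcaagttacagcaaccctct
Obox2 (plus strand, chr7:15388601-15388900): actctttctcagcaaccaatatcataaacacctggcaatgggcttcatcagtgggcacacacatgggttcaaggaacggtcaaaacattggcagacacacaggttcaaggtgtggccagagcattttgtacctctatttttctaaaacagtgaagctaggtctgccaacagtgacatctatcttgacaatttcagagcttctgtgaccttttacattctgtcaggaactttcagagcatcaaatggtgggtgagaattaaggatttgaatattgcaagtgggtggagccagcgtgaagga
Obox5 (plus strand, chr7:15750120-15750419): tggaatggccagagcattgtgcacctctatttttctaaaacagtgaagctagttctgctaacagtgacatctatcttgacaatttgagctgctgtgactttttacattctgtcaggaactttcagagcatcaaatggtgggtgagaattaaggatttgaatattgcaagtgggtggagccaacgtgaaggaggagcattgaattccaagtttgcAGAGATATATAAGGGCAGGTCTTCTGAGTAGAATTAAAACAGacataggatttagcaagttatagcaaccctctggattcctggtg
Obox3 (minus strand, chr7:15639728-15640027): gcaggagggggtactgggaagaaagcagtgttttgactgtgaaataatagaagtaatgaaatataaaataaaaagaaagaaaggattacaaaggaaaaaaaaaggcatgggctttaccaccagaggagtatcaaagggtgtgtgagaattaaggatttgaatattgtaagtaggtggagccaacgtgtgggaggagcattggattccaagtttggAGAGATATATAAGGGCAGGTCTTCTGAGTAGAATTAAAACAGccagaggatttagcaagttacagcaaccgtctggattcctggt

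The last 203 bases of the Obox2 window were identical to the first 203 of the Obox1 window, because the annotated start of Obox2 lies 97 bases further upstream in the same sequence, and its window ends before the 42-base run. Obox1 and Obox5 matched at 275 of 288 aligned bases (95.5%), and Obox5 and Obox7 at 266 of 274 (97.1%). Obox3 was further off, with 62.6% to 75.5% identity to the other 4, and diverged in the upstream part of its window. The 42-base run, which includes the letters ATATATAA, stood in 4 of 27025 gene promoters of the same length (0.0148%), those of Obox1, Obox3, Obox5 and Obox7.

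Several short motifs were searched on both strands. TAATCC, the site bound by paired-like factors of the Crx and Otx type, was in 7.16% of all promoters and here only in that of Obox3 among the 5 Obox promoters read (as GGATTA, beginning 168 bases before the start). TAATTG, the element described for Nobox, which opens with the same TAAT, was in 8.15% of all promoters and in 0 of these 5. TATAAA was in 14.2% of all promoters and in that of Obox3, beginning 189 bases before the start. CCAAT was in 37.9% of all promoters and in those of Obox2, Obox3 and Obox7. CANNTG, the E-box and its own reverse complement, was in 72.1% of all promoters and in those of Obox1, Obox2, Obox5 and Obox7. These are matches of letters within 1 window, and none of them was measured as a bound site.

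All values below are log2 signals, which are relative to the rest of the array and not amounts per embryo. The level of silent genes was set on each array at the 95th percentile of 1720 olfactory and vomeronasal receptor rows and ran from 4.75 to 5.30. Array medians ran from 4.39 to 4.69. Of 8 oocyte markers, 7 stood above the silent level on all 16 arrays and Figla on none. Of 5 trophectoderm markers 4 had a row. From MII oocyte to blastocyst 4 of 4 rose in limma, where 24.5% of tested rows were called higher. Of 9 cumulus and granulosa cell markers 4 were above the silent level on each MII array, with Inha, an inhibin subunit, at 11.94 (superovulated) and 8.12 (natural-cycle). The family members are near copies of one another, so signal from one may reach the probes of another, and levels are not compared between genes.

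Obox1, known as a maternal transcript, is described first. On the superovulated arrays it read 16.66 in MII oocytes, 16.78 at 1-cell, 16.59 at early 2-cell, 14.41 at late 2-cell, 12.95 at 4-cell, 10.74 at 8-cell, 9.52 in morulae and 6.45 in blastocysts. On the natural-cycle arrays it read 16.51, 16.57, 16.45, 13.70, 12.07, 9.88, 8.27 and 5.88 in the same order. It was flat through the first 3 stages and lower at every later one on both backgrounds, and all 16 values stood above the silent level. From MII oocyte to blastocyst it fell by 10.42 ± 0.31 (SE, limma, adjusted p = 6.26e-10), a 1370-fold difference.

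Obox2 is a close relative of Obox1 and is likewise stored in the oocyte. Its superovulated values were 16.63, 16.60, 16.17, 13.66, 12.22, 10.28, 9.05 and 6.47 from MII oocyte to blastocyst. Its natural-cycle values were 16.30, 16.35, 15.81, 13.11, 11.48, 9.58, 8.00 and 5.95. The course was close to that of Obox1, with no step called up to early 2-cell. The fitted change into early 2-cell was -0.48 ± 0.26 (limma, not called), with lower values on both backgrounds (16.60 to 16.17 and 16.35 to 15.81). After early 2-cell Obox2 fell at every step. From MII oocyte to blastocyst it fell by 10.26 ± 0.26 (limma, adjusted p = 2.36e-10).

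Obox5, a further member stored in the oocyte, read 16.24, 16.34, 16.70, 14.86, 13.72, 11.28, 9.64 and 6.83 on the superovulated arrays. It read 16.13, 16.33, 16.51, 14.83, 13.01, 10.77, 8.50 and 6.15 on the natural-cycle arrays. Its highest value came at early 2-cell on both backgrounds, although the 0.27 ± 0.30 above 1-cell did not pass the test (limma, adjusted p = 0.646). From MII oocyte to blastocyst it fell by 9.69 ± 0.30 (adjusted p = 9.93e-10). Over the 16 arrays Obox1 correlated with Obox2 at Pearson r = 0.998 and with Obox5 at r = 0.993, and Obox2 with Obox5 at r = 0.984. The arrays share the stage course, so these values describe its likeness and are given with no test.

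**Figure D1:**
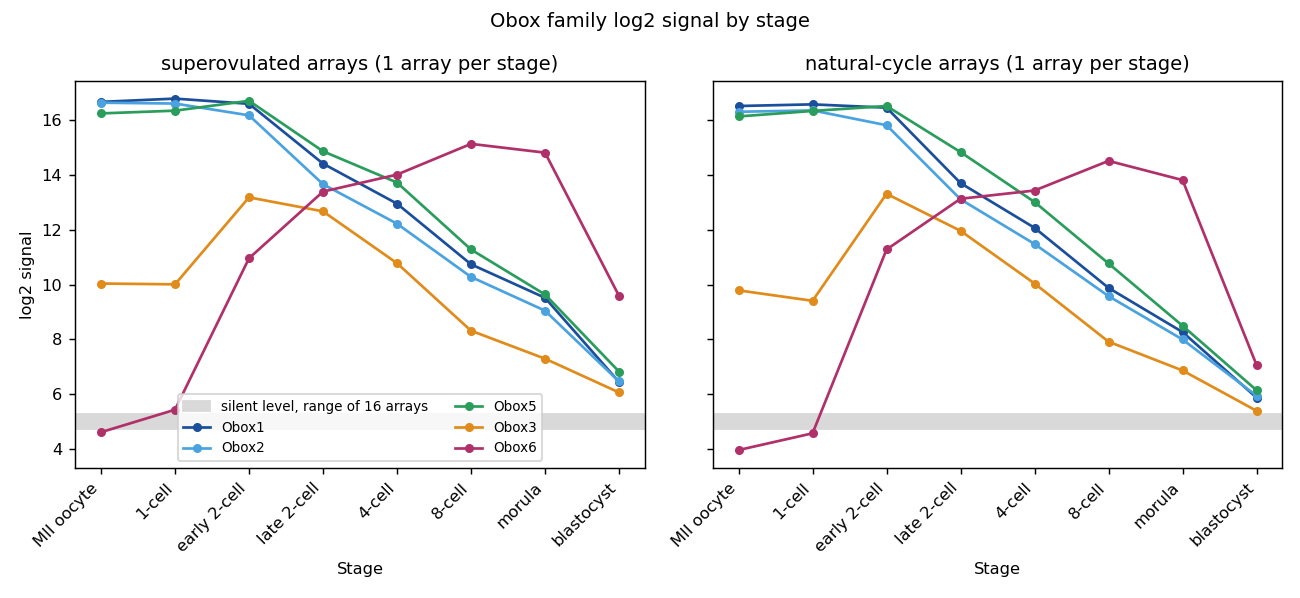
Log2 signal (vertical axis) of the 5 Obox genes at 8 stages (horizontal axis) on the superovulated (left) and natural-cycle (right) arrays, 1 array per point, with the range of the silent level over the 16 arrays as a grey band (4.75 to 5.30). Obox1, Obox2 and Obox5 hold near 16 to early 2-cell and then descend to about 6, Obox3 peaks at early 2-cell (13.18 and 13.31), and Obox6 peaks at 8-cell (15.13 and 14.51).

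Obox3 differed from these 3 in that its signal, already above the silent level in the oocyte, rose at early 2-cell. It read 10.04, 10.01, 13.18, 12.67, 10.78, 8.32, 7.30 and 6.07 on the superovulated arrays from MII oocyte to blastocyst. It read 9.79, 9.41, 13.31, 11.96, 10.04, 7.92, 6.87 and 5.40 on the natural-cycle arrays. Both early 2-cell values and both late 2-cell values stood above all 4 values of the oocyte and 1-cell, and all 16 values were above the silent level. From 1-cell to early 2-cell Obox3 rose by 3.53 ± 0.27 (limma, adjusted p = 3.29e-06), an 11.6-fold difference, by 3.17 on the superovulated and 3.90 on the natural-cycle arrays. From MII oocyte to blastocyst it fell by 4.18 ± 0.27 (adjusted p = 1.51e-07). Whether signal from the Obox3 pseudogene loci reached this row was not tested.

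Obox6 is the member known as a transcript of the embryonic genome. It read 4.62, 5.44, 10.96, 13.39, 14.01, 15.13, 14.81 and 9.59 on the superovulated arrays. It read 3.97, 4.58, 11.28, 13.13, 13.43, 14.51, 13.81 and 7.07 on the natural-cycle arrays. In MII oocytes it stood below the silent level on both arrays (5.06 and 5.21 there), and at 1-cell it exceeded that level on the superovulated array and not on the natural-cycle array (5.07 and 5.18 there). From 1-cell to early 2-cell the fitted rise was 6.11 ± 0.50 (limma, adjusted p = 5.93e-06), and because it began at the silent level its size is not a measure of the change. Obox6 rose again to late 2-cell, by 2.14 ± 0.50 (adjusted p = 0.0106).

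The highest Obox6 mean was at 8-cell (14.82), followed by morula (14.31), 4-cell (13.72) and late 2-cell (13.26). None of the 3 steps among these passed the limma test, with changes of 0.46 ± 0.50 into the 4-cell (adjusted p = 0.757), 1.10 ± 0.50 into the 8-cell (adjusted p = 0.242) and -0.51 ± 0.50 into the morula (adjusted p = 0.786). Into the blastocyst Obox6 fell by 5.98 ± 0.50 (adjusted p = 5.46e-05), a 63.2-fold difference, with changes of -5.22 on the superovulated and -6.74 on the natural-cycle arrays. Its blastocyst mean of 8.33 was still above that of the oocyte (4.03 ± 0.50, adjusted p = 3.20e-05), a size that again starts below the silent level. Its correlation with Obox3 was r = 0.042 and with Obox1 r = -0.421 over the 16 arrays. Its course as a whole was thus unlike those of Obox1 and Obox3, although Obox3 also rose from 1-cell to early 2-cell.

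The steps between neighbouring stages were then compared for the 5 members together. From MII oocyte to 1-cell 0 of 5 members were called in limma at an adjusted p under 0.05, 0 of 5 at an unadjusted p under 0.05 and 0 of 5 by plain analysis of variance. The background is low at this step, with 0.0196% of tested rows called higher and 0.215% lower. From 1-cell to early 2-cell 2 of 5 rose, Obox3 and Obox6, where 11.4% of tested rows were called higher, and 0 of 5 fell, where 10.1% were called lower. Obox1 (-0.15 ± 0.31, adjusted p = 0.817), Obox2 (-0.48 ± 0.26, adjusted p = 0.240) and Obox5 did not pass the test.

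Between early and late 2-cell all 5 were called, 4 falling against a background of 8.56% and 1 rising against 10.5%. The falls were -2.61 ± 0.26 for Obox2 (limma, adjusted p = 0.00011), -2.47 ± 0.31 for Obox1 (adjusted p = 0.00033) and -1.76 ± 0.30 for Obox5 (adjusted p = 0.00203). Obox3 fell by 0.93 ± 0.27 (adjusted p = 0.0308) and Obox6 rose. Of these, 2 calls, those of Obox3 and Obox6, rested on single arrays. The call of Obox3 was lost as well without the hormone background term (limma, adjusted p = 0.132) and with all rows tested (limma, adjusted p = 0.0589). Without the natural-cycle late 2-cell array neither Obox3 (adjusted p = 0.212) nor Obox6 (adjusted p = 0.103) passed, leaving 3 members called. The Obox3 call was also lost when the early 2-cell array of natural cycles was left out (-0.59, adjusted p = 0.284) or the superovulated late 2-cell array (adjusted p = 0.0563), and the Obox6 call without the superovulated early 2-cell array (1.52, adjusted p = 0.134).

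From late 2-cell to 4-cell 4 of 5 members fell, where 1.05% of tested rows were called lower, and 0 of 5 rose, where 1.01% were called higher. Their changes were -1.90 ± 0.27 for Obox3 (limma, adjusted p = 0.0112), -1.54 ± 0.26 for Obox2 (adjusted p = 0.0186), -1.54 ± 0.31 for Obox1 (adjusted p = 0.0309) and -1.48 ± 0.30 for Obox5 (adjusted p = 0.0345). This count rested on each of the 4 arrays concerned. It was 1 of 5 without the superovulated late 2-cell, the superovulated 4-cell or the natural-cycle late 2-cell array, and 0 of 5 without the natural-cycle 4-cell array, where 1 row in all was called lower in place of 323. Plain analysis of variance called 2 members, and over 25 alternatives the Obox5 call was lost in 11, that of Obox1 in 7, that of Obox2 in 5 and that of Obox3 in 1.

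From 4-cell to 8-cell the same 4 genes fell again, with changes from -1.92 ± 0.26 (Obox2) to -2.34 ± 0.30 (Obox5), with adjusted p from 0.00126 to 0.0025 in limma, where 4.15% of tested rows were called lower and 2.81% higher. From 8-cell to morula 3 of 5 fell, Obox5 (-1.96 ± 0.30, adjusted p = 0.0109), Obox2 (-1.40 ± 0.26, adjusted p = 0.0223) and Obox1 (-1.42 ± 0.31, adjusted p = 0.0436), against a background of 1.14% lower and 0.682% higher. Obox3 (-1.03 ± 0.27, adjusted p = 0.0858) did not pass. The Obox1 call was lost in 19 of 25 alternatives (adjusted p from 0.0202 to 0.28 over them), the Obox2 call in 5 and the Obox5 call in 3, and plain analysis of variance called 2 members. The count was 0 of 5 without the superovulated 8-cell, the natural-cycle 8-cell or the natural-cycle morula array, where 23 to 123 rows in all were called lower in place of 348. From morula to blastocyst 5 of 5 fell, where 5.53% of tested rows were called lower and 6.54% higher, among them Obox1 (-2.73 ± 0.31, adjusted p = 0.000226), Obox5 (-2.58 ± 0.30, adjusted p = 0.000272) and Obox2 (-2.32 ± 0.26, adjusted p = 0.000206). The smallest, Obox3 (-1.35 ± 0.27, adjusted p = 0.0064), was not called without the natural-cycle blastocyst array (adjusted p = 0.0644).

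Over the whole course, from MII oocyte to blastocyst, 4 of 5 members were lower, where 20.1% of tested rows were called lower, and Obox6 was higher, where 24.5% were. The level order of Obox1, Obox2 and Obox5 thus followed the stages, with the first 3 stages not told apart and each later stage below the one before it in the fit.

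**Figure D2:**
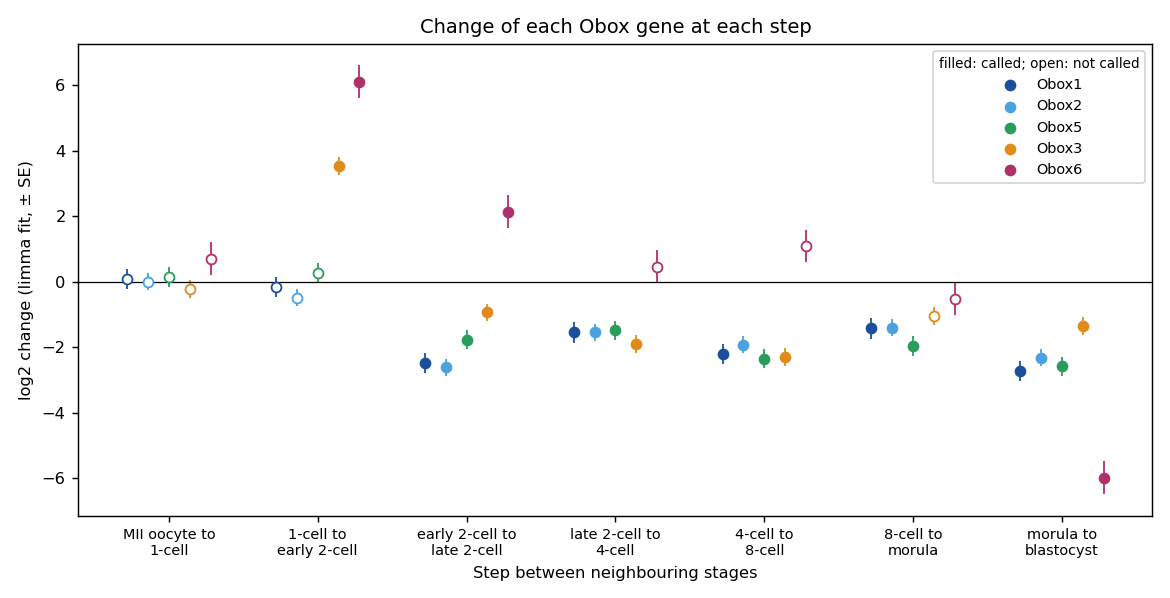
Log2 change of each Obox gene (vertical axis, limma estimate ± SE from the additive fit to 16 arrays) at the 7 steps between neighbouring stages (horizontal axis), with filled points called at an adjusted p under 0.05 and open points not called. Obox3 (3.53) and Obox6 (6.11) rise from 1-cell to early 2-cell, Obox1, Obox2 and Obox5 fall at each step from early 2-cell on, and Obox6 falls by 5.98 into the blastocyst.

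Obox7, the remaining coding gene of the cluster and another maternal transcript, was listed in the array annotation under the older name Gm4745. It read 13.54, 13.65, 13.26, 10.97, 9.57, 7.49, 6.55 and 6.05 on the superovulated arrays and 13.42, 13.65, 13.06, 10.64, 9.15, 7.57, 5.93 and 5.81 on the natural-cycle arrays. Its course followed that of Obox2 (r = 0.987) and Obox1 (r = 0.979). Like them it fell between early and late 2-cell (-2.35 ± 0.25, limma, adjusted p = 0.000152), while its last step into the blastocyst did not pass (-0.32 ± 0.25, adjusted p = 0.521).

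The 8 Obox3 pseudogene rows, 7 of them on chromosome 7 and Obox3-ps8 on chromosome 17, were bright in the oocyte, with a median of 13.26 (8.93 to 15.82) on the superovulated and 12.79 (9.06 to 14.78) on the natural-cycle array. All 8 had their highest mean at early 2-cell. As an example chosen after its values were seen, Obox3-ps5 read 15.82 and 14.78 in MII oocytes, 17.27 and 17.72 at early 2-cell, and 5.10 and 4.70 in blastocysts (superovulated, then natural-cycle). From 1-cell to early 2-cell 8 of 8 rose in limma, with a median of 1.86, of which 2 remained called without the natural-cycle 1-cell array and 2 without the natural-cycle early 2-cell array. At that step 11.4% of tested rows were called higher. From 4-cell to 8-cell 8 of 8 fell, with a median of -3.20, where 4.15% of tested rows were called lower. From MII oocyte to blastocyst 8 of 8 fell, where 20.1% were called lower, with a median of -8.38. On the blastocyst arrays 5 of 8 (superovulated) and 1 of 8 (natural-cycle) stood above the silent level, so part of that last size is a floor.

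The 27 Obox4 pseudogene rows held 23 distinct sets of values, since Obox4-ps18 to Obox4-ps22 were 5 rows with identical numbers and were counted once. Others nearly matched, such as Obox4-ps14 (15.07) and Obox4-ps17 (15.03) on the superovulated early 2-cell array. Signal may be shared among these loci, so the 23 rows are not taken as independent. They were low in MII oocytes (median 7.02 superovulated and 7.06 natural-cycle), high at early 2-cell (14.54 and 13.83) and lower again at late 2-cell (10.20 and 10.48). All 23 had their highest mean at early 2-cell. From 1-cell to early 2-cell 22 of 23 rose in limma, with a median of 6.07 over the 23. From early to late 2-cell 22 of 23 fell, with a median of -3.78. Over all tested rows 11.4% were called higher at the first step and 8.56% lower at the second. Obox4-ps34, the exception in both, stayed near the silent level (5.33 and 4.54 at early 2-cell).

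Obox4-ps11, an example chosen after its values were seen, read 8.65, 9.11, 16.96, 12.24, 11.55, 8.38, 10.03 and 5.79 on the superovulated arrays and 8.79, 10.02, 15.96, 12.48, 10.85, 7.46, 5.47 and 5.83 on the natural-cycle arrays. It rose by 6.90 ± 0.95 to early 2-cell (limma, adjusted p = 0.000284). Its courses on the 2 backgrounds parted at the morula, where the superovulated array was higher than at 8-cell and the natural-cycle array lower. Over all tested rows 4.15% were called lower from 4-cell to 8-cell. From 4-cell to 8-cell 17 of 23 Obox4 rows fell, a count that was 1 without the superovulated 4-cell, the natural-cycle 4-cell or the natural-cycle 8-cell array. It was 4 in the absence of the superovulated 8-cell array, and 1 by plain analysis of variance.

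**Figure D3:**
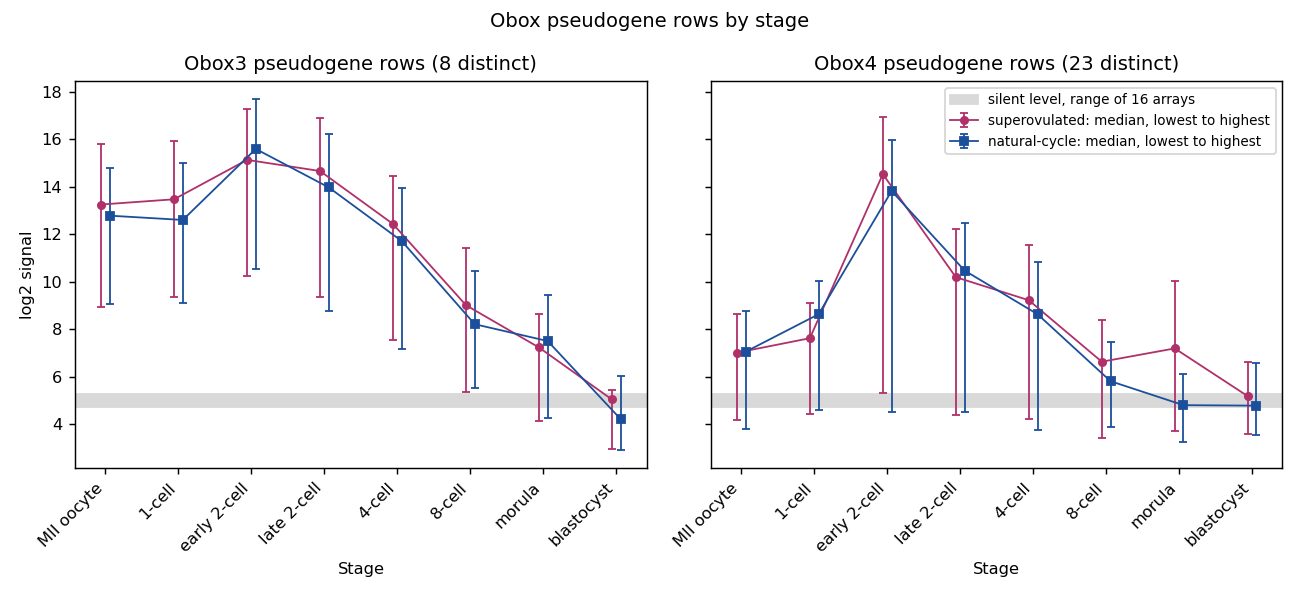
Log2 signal (vertical axis) of the 8 Obox3 pseudogene rows (left) and the 23 distinct Obox4 pseudogene rows (right) at 8 stages (horizontal axis), as the median with bars from the lowest to the highest row, for the superovulated and natural-cycle arrays, with the silent level as a grey band. Both groups have their highest median at early 2-cell. The Obox4 rows part at the morula (median 7.20 superovulated and 4.81 natural-cycle, the second near the silent level).

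On the hormone background, the members tended to read higher after superovulation, and none was called. For Obox1 the superovulated array exceeded the natural-cycle array of the same stage by 0.14 to 1.25, for Obox2 by 0.26 to 1.05 and for Obox5 by 0.01 to 1.13, in 8 of 8 stages each. Over all tested rows 2.83% were higher in 8 of 8 stages. For Obox3 the difference ran from -0.13 to 0.74 and for Obox6 from -0.32 to 2.52, higher in 7 of 8 stages each and lower at early 2-cell. The largest single gap, 2.52, was that of Obox6 in blastocysts (9.59 against 7.07).

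In the additive limma fit the differences were 0.60 ± 0.15 for Obox1 (adjusted p = 0.0983), 0.57 ± 0.13 for Obox2 (adjusted p = 0.0782), 0.46 ± 0.13 for Obox3 (adjusted p = 0.136), 0.42 ± 0.15 for Obox5 (adjusted p = 0.201) and 0.77 ± 0.25 for Obox6 (adjusted p = 0.169). Thus 0 of 5 were called, where 0.206% of tested rows were called higher and 0.134% lower. An unadjusted p under 0.05 was found for 5 of 5 members and for 4975 of the 30638 tested rows. The counts of 63 rows called higher and 41 lower changed with the test and with the stages used. They were 0 and 0 by plain analysis of variance and by an exact sign-flip permutation test. Leaving out either array of a stage removes that stage from this contrast, so the 16 such fits come in pairs with the same estimate. These counts were 1 and 0 without the late 2-cell stage, 267 and 275 without the blastocyst stage, and 0 and 0 without each of the others. By the exact two-sided sign-flip permutation test within stages p was 0.0078 for Obox1, Obox2 and Obox5, the smallest it can give. It was 0.0156 for Obox3 and 0.0234 for Obox6, with adjusted p from 0.196 to 0.259 over all tested rows. In this test 4600 tested rows had an unadjusted p under 0.05. Obox2 was called with 2 other settings, without the mean-variance trend (adjusted p = 0.0316) and among rows above the median level (adjusted p = 0.0359). The difference in this contrast between the stages up to early 2-cell and those after it was called for 0 of 5 members (adjusted p from 0.766 to 0.872, 1 of 5 at an unadjusted p under 0.05, 0 of 5 by plain analysis of variance), where 0% of tested rows were called and 1905 had an unadjusted p under 0.05.

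The morula held the largest differences of Obox1 (1.25), Obox2 (1.05) and Obox5 (1.13) between the backgrounds. There the 23 Obox4 rows were all higher on the superovulated array, by a median of 2.52 (0.47 to 4.56). On the natural-cycle morula array 12 of these 23 rows stood above the silent level, so part of that size is a floor. Of the Obox3 pseudogene rows 7 of 8 were lower at the morula, with a median difference of -0.27 over the 8. Other genes moved at the same stage, where the median difference over all 30638 tested rows was 0.11. It was -0.17 over the 14228 rows above the silent level on both arrays. How many of all tested rows were higher there was not counted. Of 24 genes known for 2-cell activation 19 were higher on the superovulated morula array, with a median difference of 0.44 over the 24. Among the 19 was Zscan4c, a telomere-maintenance gene of the 2-cell stage (8.41 against 6.14). Trophectoderm markers were lower there in 4 of 4 (median 8.19 against 10.83). Cumulus and granulosa markers were higher in 9 of 9 by a median of 0.33, with 2 of 9 above the silent level against 1 of 9. Oocyte markers were higher in 4 of 8 (median 9.65 on both). Inner cell mass markers were lower in 3 of 4, among them the pluripotency factors Nanog (12.82 against 15.08) and Pou5f1 (11.17 against 12.24), and primitive endoderm markers were higher in 2 of 3. The part of these in the Obox differences was not tested, and neither was the departure of the morula from the other stages.

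**Figure D4:**
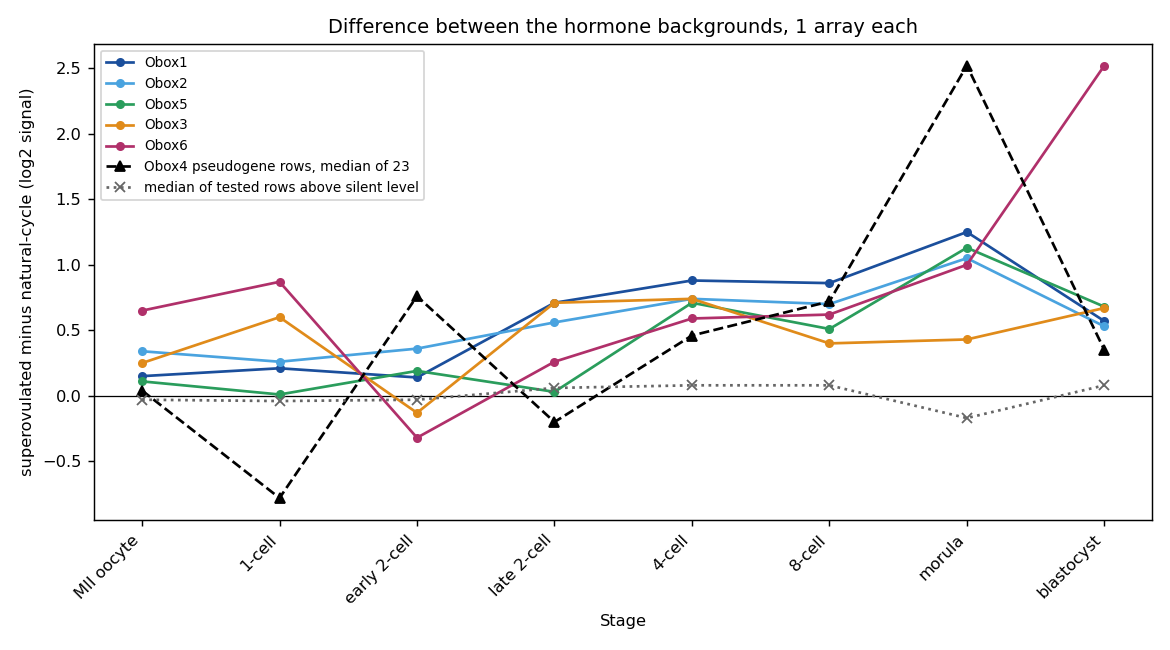
Superovulated minus natural-cycle log2 signal (vertical axis) at each of 8 stages (horizontal axis), 1 array on each side, for the 5 Obox genes, the median of the 23 distinct Obox4 pseudogene rows and the median of the tested rows above the silent level on both arrays. Obox1, Obox2 and Obox5 lie above 0 at all stages, and Obox6 reaches 2.52 in the blastocyst. The Obox4 median reaches 2.52 at the morula, where 12 of 23 rows were above the silent level on the natural-cycle array.

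Other genes of the same setting give the members their context. Of 28 listed PRD-class and related homeobox genes 18 had a row. From 1-cell to early 2-cell 3 of these rose, 1 fell and 14 were not called. Of all tested rows 11.4% were called higher and 10.1% lower at this step. The median change of the 18 was 0.23, beside -0.004 over all tested rows. The maternal Obox genes were not called at this step and were called lower at the next. Nobox, a homeobox factor required in oocytes, fell by 3.30 ± 0.33 at this step (limma, adjusted p = 2.34e-05). Its signal was 14.54 and 13.65 in MII oocytes and 11.56 and 10.11 at early 2-cell. Hesx1, a paired-like repressor, rose there by 2.66 ± 0.31 (adjusted p = 8.93e-05). Dux, listed in the reference as Duxf3, the 2-cell activator, was called higher by 0.66 ± 0.16 (adjusted p = 0.00942), yet it was above the silent level on 0 of 16 arrays (5.23 and 4.73 at early 2-cell).

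Of 25 listed 2-cell activation genes 24 had a row. From 1-cell to early 2-cell 23 of 24 rose, with a median of 5.49, where 11.4% of tested rows were called higher. From early to late 2-cell 19 of 24 fell, with a median of -2.69, where 8.56% were called lower. Zscan4c rose and fell like the Obox4 rows, with 9.27 and 8.79 at 1-cell, 14.39 and 13.79 at early 2-cell, and 10.91 and 9.89 at late 2-cell. Of 22 oocyte transcription and genome activation factors, from 1-cell to early 2-cell 5 rose, 6 fell and 11 were not called, with a median of -0.06. Over all tested rows 11.4% were called higher and 10.1% lower at that step. Zar1, a maternal RNA-binding factor, was among the 6 factors that fell (17.05 and 16.66 in MII oocytes, 14.05 and 13.98 at early 2-cell).

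The genes whose course was most like a member, by Pearson r over the 16 arrays among 10193 candidate rows, were all at r of 0.973 or higher. For Obox1 they were Pramel47, Pla2g4c and Tgfb2 (each r = 0.997), Pramel34 (r = 0.996) and Rfpl4 (r = 0.995), and for Obox2 Nlrp9c (r = 0.997), Birc3, Rfpl4, Pla2g4c and Pramel32. For Obox5 they were Pramel47, Pramel34, Tmtc1, Kbtbd8 and Bmp15, the last a growth factor secreted by the oocyte (r = 0.995, highest 17.99 and lowest 5.42). For Obox3 they were Meioc (r = 0.984), a meiotic gene, Nat8f2, Tcstv1, Colgalt2 and Stxbp5. For Obox6 they were Kat2b-ps (r = 0.983), Tfrc, the transferrin receptor (r = 0.982), Larp1b, Polr1c, a subunit of RNA polymerases I and III, and Uap1.

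Next to the cluster on chromosome 7, the 5 nearest coding genes on each side were read. On the left side, Sult2a6 and Sult2a8, cytosolic sulfotransferase genes, were above the silent level on 0 of 16 arrays, Sult2a7 on 1, Sult2a3 on 4 and Sult2a4 on 6. On the right side Crx, the retinal homeobox gene from which the family is thought to derive, exceeded it on 4 of 16 arrays, with a highest value of 5.40. Crxos, on a row that also carries the name Crxos1, read 4.67 and 4.79 at 1-cell, 8.66 and 8.74 at early 2-cell and 12.53 and 12.08 at 8-cell, and stayed at 12.76 and 12.37 in the blastocyst. That row carries 2 symbols and was not tested. Selenow and Nop53 were above the silent level on 16 of 16 arrays and Ehd2 on 10.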

How the data were processed

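The values were log2 signals deposited by the authors, made with Affymetrix Expression Console per the labels. SST-RMA is stated in the methods for other arrays of the study and not expressly for these. Values were used as deposited. Rows with 1 gene symbol were tested (30638 rows, 30098 genes). Rows with several symbols (2176), rows without a symbol (39688) and 186 control rows were left out, and 330 older symbols were updated by a unique RefSeq synonym.

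An additive model of stage and hormone background was fitted to the 16 arrays with limma 3.58.1 in R 4.3.3 (7 residual degrees of freedom, mean-variance trend). P-values were adjusted by Benjamini-Hochberg over all tested rows and called under 0.05. The median SE was 0.227 for a step and 0.113 for superovulation, and the number of arrays limits this precision. The fit was tested on simulated data. Members, gene lists and tests were chosen with earlier results of these data known. Genes named beside the members were those on the lists, other Obox rows, up to 5 genes per member with the highest r (SD of 0.5 or more) and 5 coding neighbours on each side. Promoters came from RefSeq (GRCm38.p6).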

Additional observations from a re-analysis of the deposited data

Results flagged for a closer look

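Obox4 pseudogene rows moved in opposite directions on the 2 backgrounds from 8-cell to morula. All 23 distinct rows were higher at the morula than at 8-cell on the superovulated arrays (median change 0.55) and lower on the natural-cycle arrays (median change -1.33), a median difference of 1.78. From morula to blastocyst 13 of 23 had opposite signs, with a median difference of -2.10 (median change -2.09 superovulated and 0.08 natural-cycle). Both values rest on the same superovulated and natural-cycle morula arrays, and the natural-cycle rows were then near the silent level, with 12 of 23 above it. Without the natural-cycle morula array 13 of 23 Obox4 rows were called lower from morula to blastocyst, and 0 with all arrays. These differences were not tested, and the rows may share signal.

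Among the members, Obox2 from MII oocyte to 1-cell had opposite signs (-0.03 superovulated and 0.05 natural-cycle), a difference of -0.08 that was not tested and is under the SE of 0.26 of that step.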

How the results depend on the processing

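For 5 members and 10 comparisons, 50 values were recomputed, 1245 values over all alternatives. Of the 28 called values 18 stayed called in all alternatives and 10 were lost in at least 1, and none of the 28 changed sign. Among values that were not called, 9 changed sign, none over 0.15 in size. From late 2-cell to 4-cell the count of 4 members called was 1 without the hormone background term, 2 by plain analysis of variance and 2 with all rows tested. From 8-cell to morula the count of 3 was 1 without the background term and 1 with array weights. For superovulation the count of 0 was 1 without the mean-variance trend and 1 among rows above the median level. Leaving out 1 array at a time gave 3 to 5 called from early to late 2-cell, 0 to 4 from late 2-cell to 4-cell, and 0 to 3 from 8-cell to morula; a stage left with 1 array is assumed to vary like the others. The cause was not tested. Scaling moved the split of rows called for superovulation from 63 higher and 41 lower to 58 and 67 after quantile normalization and 177 and 183 after centring on brighter rows, which also shifted the median change from 1-cell to early 2-cell to -0.19. Counts over all tested rows moved too when 1 array was left out, from 1 to 327 rows called lower from late 2-cell to 4-cell, 177 to 1335 from 4-cell to 8-cell and 23 to 403 from 8-cell to morula, and from 0 to 267 higher and 0 to 275 lower for superovulation. The stage term pairs the 2 arrays of each stage, and no further replicate block was fitted because each stage and background held 1 array.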
